A study of Mus musculus with 8 samples.

Results

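The genes described here make, carry and buffer lactic acid. They are the 8 genes *Ldha*, *Ldhb*, *Slc16a1*, *Slc16a3*, *Bsg*, *Car9*, *Car12* and *Slc4a7*, picked by symbol from the 55414 genes of a table of TPM, a transcript level scaled to transcript length and to the library total and all 8 passed the filter on low values. RNA-seq covered B16F10, a cultured mouse melanoma line, in 4 groups of 2 libraries each, all taken after 24 h. WT cells carried no construct and CypD KO cells had been edited with Cas9 in *Ppif*, the gene of the mitochondrial protein cyclophilin D (CypD), and these groups were kept at 21% oxygen. Control cells stably carried pcDNA without an insert, CypD OE cells stably carried pcDNA-CypD, and these groups were kept at 1% oxygen. Knockout cells were clones that survived puromycin, and the stable lines were clones resistant to G418; how many clones stand behind each group is not stated in the sources used here. Vector cells were not measured at 21% oxygen, nor WT or CypD KO cells at 1%, so oxygen and vector cannot be told apart wherever a 1% group is set against a 21% group.

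Cells that break glucose down to pyruvate without passing it to the mitochondria reduce it to lactate, and each lactate leaves the cell with a proton. Lactate dehydrogenase carries out the reduction. Monocarboxylate transporters of the plasma membrane carry lactate and proton out together and need the glycoprotein basigin to reach the surface, while carbonic anhydrases on the outer face and bicarbonate carriers set the acidity on either side. Several of these genes are textbook targets of the hypoxia-inducible factors, which bind DNA at short sites with the core ACGTG or GCGTG.

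The stretches below show where that core lies ahead of *Slc16a3*, *Ldha* and *Car9*, which varied most between the groups, and, for contrast, ahead of *Slc16a1*, which varied least. Each is 30 bases of the gene's own strand, taken from RefSeq promoter windows (GRCm38.p6) of 250 bases before to 50 bases after a transcript start and placed on GRCm39 by exact match, with the core in capitals. Overlapping cores on opposite strands together spell CACGTG, a sequence also known as an E-box. Which factors bind any of these sites was not tested.
*Slc16a3*, chr11:120839860-120839889, plus strand: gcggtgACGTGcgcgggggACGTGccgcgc
*Ldha*, distal, chr7:46495071-46495100, plus strand: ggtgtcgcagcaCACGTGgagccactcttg
*Ldha*, proximal, chr7:46495174-46495203, plus strand: agcctaCACGTGggttcccgCACGTccgct
*Car9*, chr4:43506995-43507024, plus strand: cctatttccgatgCACGTacagcccgtcca
*Slc16a1*, chr3:104545768-104545797, plus strand: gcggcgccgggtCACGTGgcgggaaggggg

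Counted on both strands, and with each CACGTG giving 2 matches, ACGTG occurred 5 times in the first *Ldha* window, 3 times in that of *Slc16a1*, 2 times in that of *Slc16a3* and 1 time in that of *Car9*. The 2 cores of *Slc16a3* began 27 and 14 bases before the start, and that of *Car9* began 18 bases before it. No ACGTG was found in the second *Ldha* window or in the windows of *Ldhb*, *Car12* and *Slc4a7*. GCGTG occurred 2 times in each *Ldha* window, 2 times in that of *Slc16a1* and 1 time in that of *Ldhb*, while *Car12* and *Slc4a7* held neither core. The 250 bases before the start lay at chr9:66620718-66620967 for *Car12* and chr14:7750980-7751229 for *Slc4a7*, within the annotated span of each gene. Those of *Ldha*, *Ldhb* and *Slc16a3* also lay within the gene, and the outermost starts of these genes were not examined. Of all 32851 windows in the table, 19.6% held ACGTG, 32.4% GCGTG, 43.8% either core and 7.2% CACGTG. The window of *Slc16a1* held both cores and its transcript levels lay close together in all 4 groups. In GENCODE M39 the *Slc16a3* stretch overlaps an exon of 17 of 43 annotated transcripts in at least part. The *Car9* stretch so overlaps an exon of 3 of 8, and the proximal *Ldha* stretch an exon of 1 of 63. *Bsg*: no entry in the table used.

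*Ppif* itself averaged 50.3 TPM in WT, 11.3 in CypD KO, 43.4 in Control and 49.8 in CypD OE (n = 2 each). Its fall in CypD KO was 2.07 on the log2 scale (limma adjusted p = 3.81e-06), whereas CypD OE and Control differed in mouse *Ppif* by a log2 fold change of 0.19 (adjusted p = 0.0794, with 0.0325 to 0.271 over 15 alternatives, and past the threshold only where a CypD KO library was left out), so these are called the libraries labelled CypD OE. The study's methods write the insert as pcDNA-CypD with the symbol *Ppif*, as for the mouse gene, but do not spell out its species or form. The insert's transcripts may not have been counted as mouse *Ppif*, or may have been few in these libraries. Neither was tested. By the paper's account, western blots showed CypD overexpression in the stable clones and no CypD in the knockout clones. All 7 melanocyte markers were above 1 TPM in each group, while defining leukocyte and keratinocyte genes were at or near 0. Of 3 endothelial genes *Cdh5* was at 0, and *Pecam1* was at 0.45 and 0.13 TPM in WT, 0.98 and 0.56 in CypD KO, 0.39 and 1.18 in Control and 0.21 and 0.03 in libraries labelled CypD OE. The summed level of the melanocyte markers was 15665 to 15755 TPM in WT, 12433 to 12587 in CypD KO, 20446 to 20984 in Control and 13586 to 13758 in libraries labelled CypD OE. *Tyrp1* made up the largest part of this sum. Like the sum, *Tyrp1*, *Mitf*, *Pmel* and *Dct* were highest in Control. *Tyr* had its highest mean in CypD KO (157 TPM, against 39.3 in WT, 74.85 in Control and 74.47 in libraries labelled CypD OE). *Mlana* and *Sox10* were highest in libraries labelled CypD OE, at means of 2050 and 272 TPM. The summed level of 6 fibroblast genes, of which 3 reached 1 TPM and *Dcn* was at 0, was highest in CypD KO (34.2 to 37.2 TPM, mostly *Postn*, against 9.23 to 21.0 elsewhere), although *Col1a2* had its lowest mean there (1.63 TPM, against 7.95 in WT, 10.5 in Control and 3.02 in libraries labelled CypD OE). The part of these differences in the results that follow was not tested. In bulk RNA, fewer cells using a gene and less RNA per cell cannot be told apart.

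CypD KO was compared with WT, both at 21% oxygen. Cas9 editing, puromycin selection and cloning came together with the change in *Ppif*, so their parts cannot be told apart from that of CypD. The lactate-forming enzyme, the inducible exporter, its chaperone and a cell-surface carbonic anhydrase were all higher in CypD KO. Among the 8 genes, 5 rose (*Ldha*, *Ldhb*, *Slc16a3*, *Bsg*, *Car9*), 1 fell (*Slc4a7*) and 2 did not pass the test (*Slc16a1*, *Car12*). Of all 13526 genes tested, 30.1% rose and 18.4% fell, so a rise in this comparison was common, and the median log2 fold change was 0.54 over the 8 genes and 0.09 over all genes.

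*Ldha*, the muscle-type subunit that favours pyruvate reduction, had levels of 1277 and 1236 TPM under WT, and of 2215 and 2167 TPM under CypD KO. The groups were far apart relative to their spread, a 1.74-fold difference of means with a log2 fold change of 0.80 ± 0.04 (SE; limma adjusted p = 9.49e-06). *Slc16a3*, which encodes the low-affinity lactate exporter MCT4 of glycolytic cells, went from 7.89 and 7.90 TPM to 27.5 and 30.2 TPM, or 3.65-fold (log2 fold change 1.74 ± 0.22, adjusted p = 0.000676). *Bsg*, which encodes basigin, went from 439 and 424 TPM to 853 and 894 TPM (log2 fold change 1.02 ± 0.04, adjusted p = 3.51e-06). *Car9*, the membrane-bound carbonic anhydrase IX, was low throughout, with 3.11 and 2.07 TPM in WT and 7.88 and 6.99 TPM in CypD KO (log2 fold change 1.25 ± 0.18, adjusted p = 0.00148). These 4 rises kept their calls under each of 15 alternatives. *Slc16a3* had the largest of them, in rank 305 of the 13526 genes by increase.

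The remaining genes of the group shifted little. *Ldhb*, the heart-type subunit, was at 79.2 and 74.5 TPM in WT and 92.3 and 94.2 TPM in CypD KO (log2 fold change 0.28 ± 0.05, adjusted p = 0.00368). *Slc4a7*, the electroneutral sodium-bicarbonate importer NBCn1, was the only gene of the 8 that fell, from 26.3 and 29.9 TPM to 22.2 and 20.8 TPM (log2 fold change -0.37 ± 0.09, adjusted p = 0.0118). Its call was lost without WT replicate 2 (adjusted p = 0.0646) or CypD KO replicate 2 (0.0677), in a range of 0.00385 to 0.0677 over 15 alternatives. *Slc16a1*, which encodes the broadly used transporter MCT1, was at 64.1 and 65.1 TPM in WT against 62.6 and 58.6 TPM in CypD KO (log2 fold change -0.09, adjusted p = 0.174). *Car12*, carbonic anhydrase XII, stayed near the detection limit at 1.16 and 1.09 TPM against 0.80 and 0.74 TPM (log2 fold change -0.26, adjusted p = 0.257).

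More genes were called higher than lower in this comparison (62.1% of calls), but only 52.1% after median-of-ratios rescaling of the libraries. Under that scaling *Slc16a1* passed the threshold as lower in CypD KO (log2 fold change -0.17, adjusted p = 0.0167, with 0.0167 to 0.559 over 15 alternatives), and the directions of the other 7 genes were as before.

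**Figure D1:**
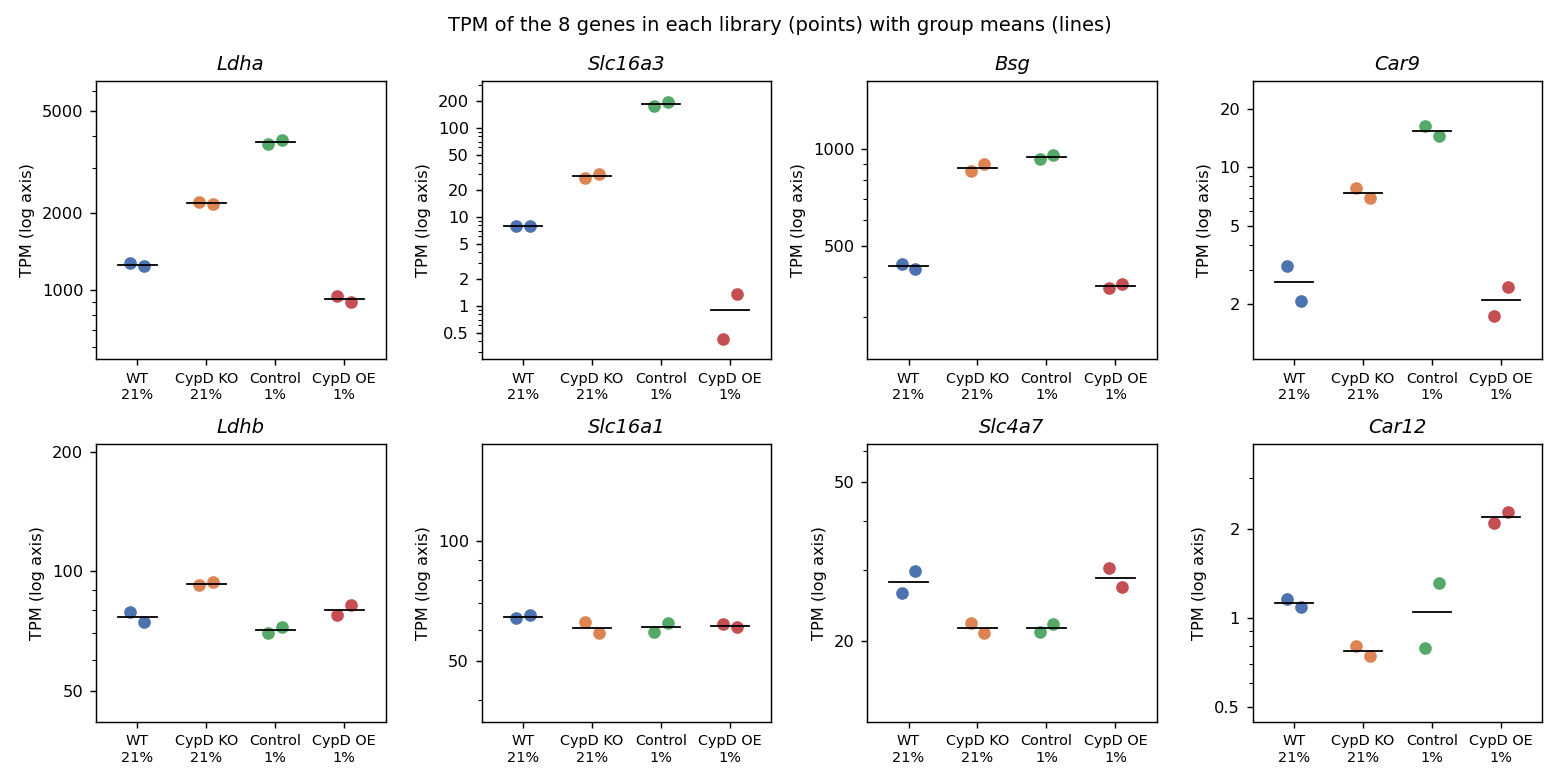
TPM (log axis, scaled separately in each panel) of the 8 genes in every library, by group with its oxygen level; points are libraries and lines are means of 2. In the upper row the order was libraries labelled CypD OE, WT, CypD KO, Control from low to high, with overlap between WT and libraries labelled CypD OE for *Car9* alone; in the lower row *Slc4a7* was lower in CypD KO and Control than in WT, and *Car12* was highest in libraries labelled CypD OE.

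Libraries labelled CypD OE were compared with Control, both at 1% oxygen. The labels and the paper's western blots give them as differing in added CypD, while the mouse *Ppif* transcript did not pass the threshold between them. Both lines were clones selected with G418, so differences between clones cannot be told apart from the part of the insert. *Ldha*, *Slc16a3*, *Bsg* and *Car9*, each higher in CypD KO than in WT, were lower here, with log2 fold changes of -1.33 to -6.68 beside 0.80 to 1.74 in CypD KO. Among the 8 genes, 4 fell (*Ldha*, *Slc16a3*, *Bsg*, *Car9*), 3 rose (*Ldhb*, *Car12*, *Slc4a7*) and *Slc16a1* did not pass the test. Of the 13526 genes, 18.3% fell and 19.0% rose, and the median log2 fold change was -0.66 over the 8 genes and 0.00 over all genes. Without Control replicate 1 the 4 falls were called and the 3 rises were not.

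*Slc16a3* had the largest log2 change of all 13526 genes in this comparison. Control held 177 and 197 TPM, libraries labelled CypD OE held 0.42 and 1.36 TPM, and there was no overlap. The ratio of means was 210, but 446 when set against replicate 1 alone and 138 against replicate 2 alone. The low values rest on approximately 5.0 and 16.6 fragments per 1000 effective bases. The log2 fold change was -6.68 ± 0.22 with a pseudocount of 1 and -7.75 with 0.1 (adjusted p = 3.36e-06 and 3.24e-05, with 1.59e-06 to 0.00153 over 15 alternatives). The gene (chr11:120838846-120851694, plus strand, GRCm39) is overlapped on the other strand by *Csnk1d*, at 78.3 to 106 TPM in the 8 libraries, and by *Ccdc57*, at 5.44 to 7.73 TPM. The sources do not state whether counting used strand, so reads of the overlapping stretch could have been shared. *Csnk1d* was at 85.7 and 84.9 TPM in WT, 106 and 90.4 in CypD KO, 96.5 and 105 in Control and 78.3 and 80.2 in libraries labelled CypD OE. Its lowest and highest group means were in the groups where those of *Slc16a3* were, over a narrower range, and the part of shared reads was not tested.

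*Ldha* (chr7:46490899-46505061, plus strand) fell from 3706 and 3853 TPM to 948 and 895 TPM, a 4.10-fold lower mean (log2 fold change -2.03 ± 0.04, adjusted p = 4.57e-07). In Control it ranked 23 and 21 among all genes by level and held 0.371% and 0.385% of all TPM, against ranks of 140 and 151 and shares of 0.0948% and 0.0895% in libraries labelled CypD OE. *Bsg* (chr10:79540143-79547821, plus strand) fell from 933 and 958 TPM to 369 and 380 TPM (log2 fold change -1.33 ± 0.04, adjusted p = 1.52e-06). *Car9* (chr4:43506966-43513729, plus strand) fell from 16.3 and 14.5 TPM to 1.74 and 2.43 TPM (log2 fold change -2.42 ± 0.18, adjusted p = 0.000131). The lncRNA gene *Gm12454* overlaps *Car9* on the other strand and lay between 0.81 and 2.11 TPM, at about the level of *Car9* in the lowest libraries. By size of fall these genes ranked 78 (*Ldha*), 230 (*Bsg*) and 45 (*Car9*) of 13526.

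The 3 rises were smaller and less secure. *Slc4a7* (chr14:7669819-7767484, minus strand) rose from 21.0 and 22.0 TPM to 30.4 and 27.2 TPM (log2 fold change 0.40 ± 0.09, adjusted p = 0.0107), but not past the threshold without Control replicate 1 (0.0574) or CypD OE replicate 1 (0.0639), with 0.008 to 0.0639 over 15 alternatives. *Car12* (chr9:66615426-66674186, plus strand) rose from 0.79 and 1.31 TPM to 2.11 and 2.30 TPM (log2 fold change 0.66 ± 0.18, adjusted p = 0.0249). Its values rest on 8.1 to 28 fragments per 1000 effective bases, it lies wholly within *Aph1b* on the other strand (2.78 to 5.98 TPM), and its call was lost in 4 of 14 alternatives, among them each that left out Control replicate 1 (adjusted p = 0.115) or either CypD OE library (0.0756 and 0.106, with 0.0115 to 0.115 over the 14). *Ldhb* (chr6:142435672-142454586, minus strand) rose from 69.8 and 72.3 TPM to 77.6 and 82.5 TPM (log2 fold change 0.17 ± 0.05, adjusted p = 0.0355). That call was lost in 10 of 15 alternatives (0.0307 to 0.169), including the fit with the replicate number as a block (0.0558), and without Control replicate 1 (0.146), Control replicate 2 (0.0706) or CypD OE replicate 2 (0.169). *Slc16a1* (chr3:104545811-104565780, plus strand) was at 59.1 and 62.3 TPM against 62.1 and 60.8 TPM, with overlapping groups (log2 fold change 0.02, adjusted p = 0.83).

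**Figure D2:**
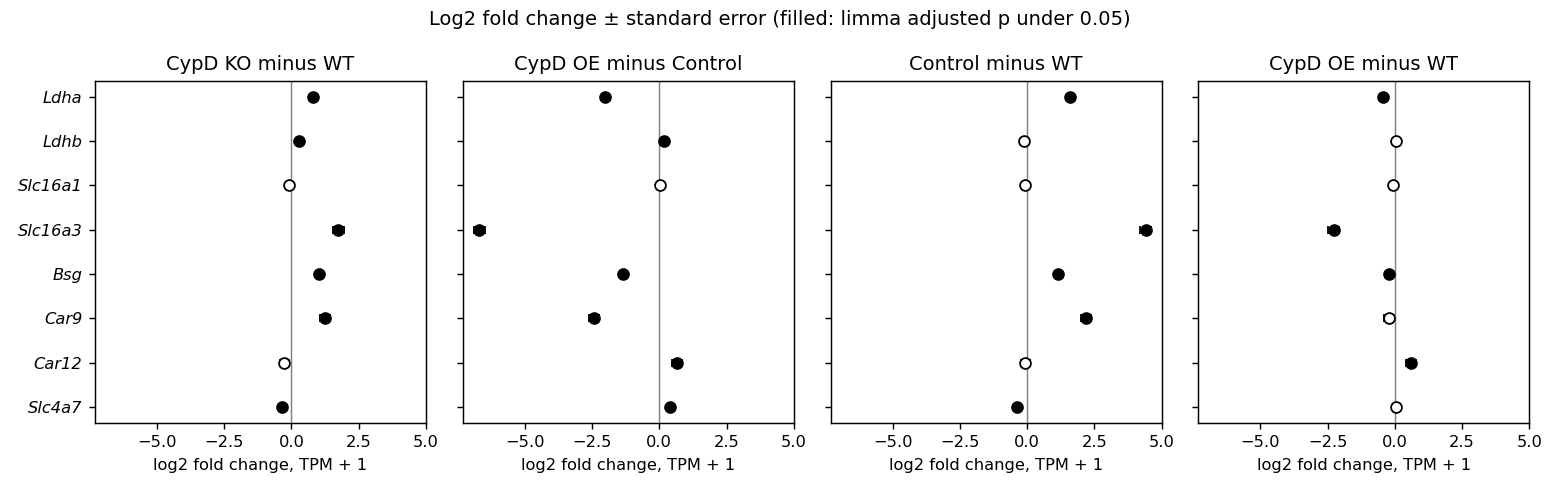
Log2 fold change of TPM + 1 for the 8 genes in 4 comparisons, with standard errors from limma, which are often smaller than the points; filled points passed an adjusted p of 0.05. *Slc16a3* stood farthest from 0 in each comparison, from -6.68 in libraries labelled CypD OE against Control to 4.40 in Control against WT, while *Slc16a1* was open and near 0 throughout.

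Setting Control against WT shows how vector cells at 1% oxygen differed from unmodified cells at 21%. *Ldha* rose 3.01-fold (log2 fold change 1.59 ± 0.04, adjusted p = 2.31e-06), *Slc16a3* 23.7-fold (4.40 ± 0.22, adjusted p = 5.15e-05), *Bsg* 2.19-fold (1.13 ± 0.04, adjusted p = 7.59e-06) and *Car9* 5.94-fold (2.2 ± 0.18, adjusted p = 0.000443). *Slc16a3* was in rank 5 and *Car9* in rank 33 among increases. *Slc4a7* was the only gene of the 8 called lower (log2 fold change -0.37 ± 0.09, adjusted p = 0.0238), and that call was lost in 5 of 15 alternatives, among them leaving out WT replicate 2 (0.11), Control replicate 1 (0.105) or Control replicate 2 (0.0683), with a range of 0.0168 to 0.11. *Ldhb*, *Slc16a1* and *Car12* did not pass (log2 fold changes of -0.11, -0.09 and -0.06, adjusted p = 0.155, 0.246 and 0.831). Thus 4 genes rose, 1 fell and 3 did not pass, where 12.1% of all genes rose and 12.1% fell. Medians on the log2 scale were 0.53 over the 8 genes and 0.01 over all genes.

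Against WT at 21% oxygen, the libraries labelled CypD OE at 1% were lower in *Slc16a3*, *Ldha* and *Bsg*. Here *Slc16a3* fell 8.87-fold (log2 fold change -2.28 ± 0.22, adjusted p = 0.000643, rank 24 among decreases), *Ldha* 1.36-fold (-0.45 ± 0.04, adjusted p = 0.000396) and *Bsg* 1.15-fold (-0.20 ± 0.04, adjusted p = 0.00653). *Car9* overlapped between the groups (adjusted p = 0.43), as did *Ldhb* (0.427) and *Slc4a7* (0.795), and *Slc16a1* did not pass (0.332). *Car12* was called higher (log2 fold change 0.59 ± 0.18, adjusted p = 0.046), a call lost in 9 of 14 alternatives (0.0224 to 0.165), the replicate block (0.0659) and leaving out either WT library (0.123 and 0.141), either CypD OE library (0.121 and 0.165) or either CypD KO library (0.0658 each) among them. Thus 3 genes fell, 1 rose and 4 did not pass, where 13.7% of all genes fell and 14.0% rose. The median log2 fold change was -0.14 over the 8 genes and 0.01 over all genes.

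CypD KO at 21% oxygen was also set against Control at 1%, a comparison added after the data had been seen, to place the knockout on the scale of the vector cells. *Slc16a3* was 6.5-fold lower in CypD KO (log2 fold change -2.66 ± 0.22, adjusted p = 0.000118), *Car9* 2.07-fold lower (-0.96 ± 0.18, adjusted p = 0.00523) and *Ldha* 1.73-fold lower (-0.79 ± 0.04, adjusted p = 1.25e-05). *Bsg* was nearly level, at 92.4% of Control (log2 fold change -0.11 ± 0.04, adjusted p = 0.0357), and lost its call in 6 of 15 alternatives (0.00912 to 0.182), including without CypD KO replicate 1 (0.182), Control replicate 1 (0.064) or Control replicate 2 (0.147). *Ldhb* was higher in CypD KO (log2 fold change 0.39 ± 0.05, adjusted p = 0.000937), while *Slc16a1*, *Car12* and *Slc4a7* overlapped (adjusted p = 0.974, 0.397 and 1.0). In all, 4 of the 8 were lower and 1 higher, beside 16.5% and 27.4% of all genes, and the median log2 fold change was -0.16 over the 8 genes and 0.07 over all genes. More genes were called higher than lower (62.4% of calls), and 51.9% after median-of-ratios rescaling. The comparisons above share libraries, so their values stand side by side and are not independent of each other.

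By level, then, *Ldha* and *Slc16a3* had the same order, with libraries labelled CypD OE lowest, WT next, CypD KO after it and Control highest, and each neighbouring pair differed past the threshold. *Bsg* had that order too, with its upper pair, CypD KO and Control, parted by the call just described. For *Car9* the lower pair overlapped. *Slc4a7* ran the other way, with CypD KO (21.5 ± 0.95 TPM, SD, n = 2) and Control (21.5 ± 0.73) level and below WT (28.1 ± 2.5) and libraries labelled CypD OE (28.8 ± 2.2), which overlapped each other. *Slc16a1* spanned only 58.6 to 65.1 TPM over the 8 libraries and *Ldhb* 69.8 to 94.2 TPM, with its highest values in CypD KO. Over the 8 libraries, which fall into 4 groups and so are no set of independent points, Pearson's r of log2(TPM + 1) with *Ldha* was 0.99 for *Slc16a3*, 0.98 for *Car9* and 0.95 for *Bsg*, and that of *Slc4a7* with *Bsg* was -0.95. *Ldhb* and *Slc16a1* had r of -0.20 and -0.38 with *Ldha*.

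Ratios within a library compare paralogues that do the same step. *Ldha* exceeded *Ldhb* 16.1- and 16.6-fold in the WT libraries, 24.0- and 23.0-fold in CypD KO, 53.1- and 53.3-fold in Control and 12.2- and 10.9-fold in libraries labelled CypD OE. No pair of groups overlapped. The ratio of *Slc16a3* to *Slc16a1* was 0.123 and 0.121 in WT, 0.439 and 0.515 in CypD KO, 3.0 and 3.16 in Control and 0.00677 and 0.0224 in libraries labelled CypD OE. *Slc16a3* was thus the more abundant transcript in Control alone, and in libraries labelled CypD OE the mean ratio corresponded to 68.6 times as much *Slc16a1*. *Car9* to *Car12* was 2.68 and 1.90 in WT, 9.85 and 9.45 in CypD KO, 20.7 and 11.1 in Control and 0.825 and 1.06 in libraries labelled CypD OE, where both transcripts were near 2 TPM. These ratios are given as values and were not tested.

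**Figure D3:**
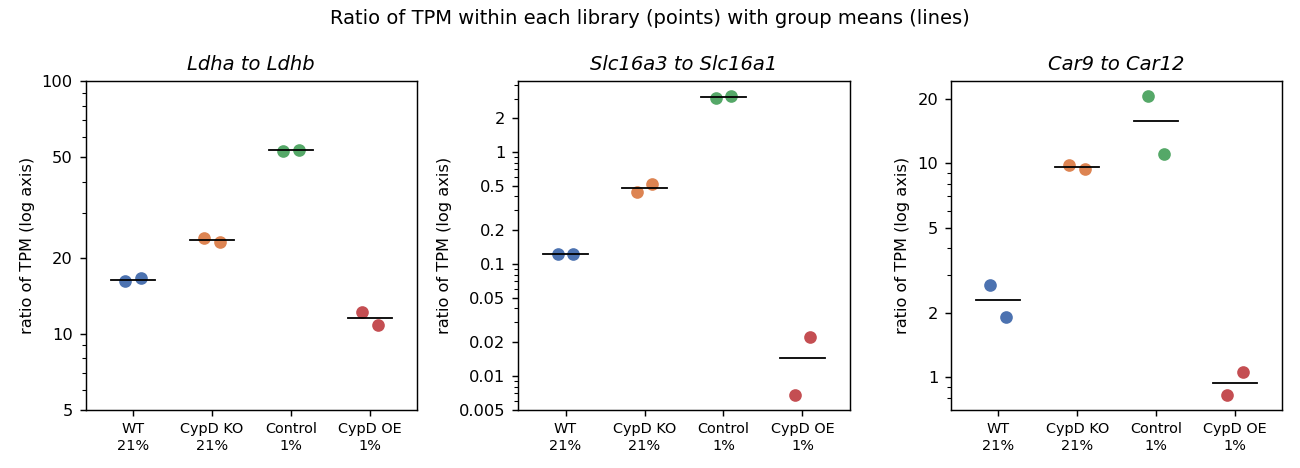
Ratio of TPM (log axis) of *Ldha* to *Ldhb*, *Slc16a3* to *Slc16a1* and *Car9* to *Car12* in each library by group and oxygen level; points are libraries, lines are means of 2. In all 3 panels Control was highest and libraries labelled CypD OE were lowest, and the 2 Control libraries differed most for *Car9* to *Car12*, at 20.7 and 11.1.

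The 58 other genes of the same pathways were listed by function, and 27 passed the filter. In CypD KO against WT, 13 of the 27 rose, 4 fell and 10 did not pass, with a median log2 fold change of 0.43, where 30.1% of all genes rose and 18.4% fell. Without WT replicate 2, 11 were called. In libraries labelled CypD OE against Control 5 rose, 7 fell and 15 did not pass (median 0.04; 19.0% and 18.3% of all genes), and 7 were called without CypD OE replicate 2. In Control against WT 2 rose, 3 fell and 22 did not pass (median 0.01; 12.1% of all genes in each direction), and 1 was called without WT replicate 1 and 3 without WT replicate 2, either Control library or either CypD OE library. Against WT, libraries labelled CypD OE had 3 higher, 5 lower and 19 not called (median 0.00; 14.0% and 13.7% of all genes), and CypD KO against Control had 10 higher, 3 lower and 14 not called (median 0.24; 27.4% and 16.5% of all genes). These counts describe the list and set it apart from no other genes.

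Among the other monocarboxylate transporters, 7 of 14 were tested, 2 rose in CypD KO and 2 in libraries labelled CypD OE (30.1% and 19.0% of all genes), and none of the 7 fell in either comparison (18.4% and 18.3%). *Slc16a7*, which encodes the high-affinity transporter MCT2, was at 0.44 and 0.62 TPM in WT, 3.96 and 3.4 TPM in CypD KO, 1.16 and 0.84 TPM in Control and 3.03 and 3.90 TPM in libraries labelled CypD OE. It was therefore higher in CypD KO than in WT and in libraries labelled CypD OE than in Control (log2 fold change 1.61 ± 0.18, adjusted p = 0.000379, and 1.16 ± 0.18, adjusted p = 0.00258), unlike *Slc16a3*, and it was also higher in libraries labelled CypD OE than in WT (1.54, adjusted p = 0.00124) and in CypD KO than in Control (1.23, adjusted p = 0.00149). *Slc16a11* rose in CypD KO against WT (1.05, adjusted p = 0.0389), a call lost in 9 of 14 alternatives (0.0064 to 0.286), each that left out a WT, CypD KO or CypD OE library among them, and in CypD KO against Control (1.81, adjusted p = 0.00495). *Slc16a13* had the highest mean of the other family members, at 4.99 to 9.17 TPM, and *Slc16a6* was lower in Control than in WT (-0.62, adjusted p = 0.0498), a call lost in 11 of 15 alternatives (0.0223 to 0.199), each that left out a WT, CypD KO or CypD OE library or Control replicate 2 among them.

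Basigin's paralogues embigin (*Emb*) and neuroplastin (*Nptn*) can also escort transporters of this family. *Emb* was at 49.5 and 46.7 TPM in WT, 77.0 and 75.6 TPM in CypD KO, 39.5 and 39.8 TPM in Control and 81.4 and 86.8 TPM in libraries labelled CypD OE. In CypD KO it rose together with *Bsg* (log2 fold change 0.66 ± 0.05, adjusted p = 8.21e-05), but in libraries labelled CypD OE it rose (1.07 ± 0.05, adjusted p = 1.86e-05) while *Bsg* fell. It was higher in libraries labelled CypD OE than in WT (0.79, adjusted p = 0.000167) and lower in Control than in WT (-0.27, adjusted p = 0.00983, lost without WT replicate 1 at 0.0527 and at the threshold without Control replicate 1, with 0.00766 to 0.0527 over 15 alternatives). *Nptn* was at 119 to 185 TPM and rose in CypD KO against WT (0.31, adjusted p = 0.0437), a call lost in 10 of 15 alternatives (0.0278 to 0.211), leaving out WT replicate 2 or any CypD KO or CypD OE library among them. *Mpc1*, a subunit of the carrier that takes pyruvate into mitochondria and so away from lactate dehydrogenase, was at 106 and 106 TPM in WT and 83.4 and 89.4 TPM in CypD KO (-0.30 ± 0.04, adjusted p = 0.00137), and rose from 99.4 and 100 TPM in Control to 113 and 116 TPM in libraries labelled CypD OE (0.19 ± 0.04, adjusted p = 0.0124), the latter not called without Control replicate 1 (0.0583) or CypD OE replicate 2 (0.0682), with 0.00966 to 0.0682 over 15 alternatives. *Mpc2*, the other subunit, went the other way in libraries labelled CypD OE. It was at 39.5 and 38.8 TPM in WT, 40.9 and 49.0 TPM in CypD KO (0.19, adjusted p = 0.145), 38.4 and 38.5 TPM in Control and 32.4 and 28.5 TPM in libraries labelled CypD OE. It was called lower there than in Control (-0.33 ± 0.10, adjusted p = 0.0332) and than in WT (-0.36 ± 0.10, adjusted p = 0.0334). Each call was lost in 8 of 15 alternatives (0.0171 to 0.162 and 0.0192 to 0.158). Among them were leaving out CypD OE replicate 2 or any single WT or Control library, and the replicate block (0.0542 and 0.0552). Without CypD KO replicate 1, *Mpc2* was called higher in CypD KO than in WT (0.0339, with 0.0339 to 0.614 over 15 alternatives).

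Of the other carbonic anhydrases 7 of 14 were tested, with 3 rises and 2 falls in CypD KO against WT and 4 falls in libraries labelled CypD OE against Control. Of all genes 30.1% rose and 18.4% fell in the former and 18.3% fell in the latter. *Car9* and *Car12* were minor members by level. *Car6*, a secreted form, led with 301 to 357 TPM and *Car14*, a membrane form, reached 237 TPM. *Car14* fell in CypD KO against WT, opposite to *Car9*, from 227 and 237 TPM to 97.5 and 93.5 TPM (log2 fold change -1.27 ± 0.04, adjusted p = 2.74e-06), and was also lower there than in Control (-1.12, adjusted p = 4.85e-06). In libraries labelled CypD OE *Car14* was lower than in Control (-0.31, adjusted p = 0.00149), as *Car9* was. It was also lower there than in WT (-0.46, adjusted p = 0.00052), and lower in Control than in WT (-0.15, adjusted p = 0.0373). *Car6* was slightly lower in CypD KO than in WT (-0.15 ± 0.04, adjusted p = 0.0229), a call lost in 5 of 15 alternatives (0.00734 to 0.104), without WT replicate 1 (0.0564), WT replicate 2 (0.104) or CypD KO replicate 1 (0.096) among them. Of the carbonic anhydrases other than *Car9*, *Car11* had the largest log2 fall in libraries labelled CypD OE, from 4.14 and 3.03 TPM to 1.85 and 1.29 TPM (-0.83 ± 0.19, adjusted p = 0.0147), not called without Control replicate 1 (0.0794) or CypD OE replicate 2 (0.0801), with 0.00479 to 0.0801 over 14 alternatives. Against WT it was lower as well (-0.74, adjusted p = 0.031), a call lost without either WT library (0.141 and 0.058) or either CypD OE library (0.0504 and 0.145), with 0.0107 to 0.145 over 14 alternatives. By ratio of means *Car8* was further down, at 25.8% of Control against 43.8% for *Car11*. *Car8* went from 0.75 and 0.76 TPM to 0.23 and 0.16 TPM (-0.56 ± 0.17, adjusted p = 0.0369). Its call was lost in 5 of 14 alternatives (0.00287 to 0.125), without either Control or either CypD OE library and with the replicate block (0.0568). The cytosolic *Car13* was lower in libraries labelled CypD OE than in WT (-0.61 ± 0.08, adjusted p = 0.00202) and in Control (-0.62 ± 0.08, adjusted p = 0.00117). It was higher in CypD KO than in WT (0.56 ± 0.08, adjusted p = 0.00115) and in Control (0.55 ± 0.08, adjusted p = 0.00146).

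Among bicarbonate carriers 4 of 9 others were tested. *Slc4a8*, a sodium-driven chloride-bicarbonate exchanger, was at 12.4 and 13.1 TPM in WT, 19.9 and 18.9 TPM in CypD KO, 21.8 and 21.7 TPM in Control and 8.84 and 7.35 TPM in libraries labelled CypD OE. It fell in libraries labelled CypD OE against Control (log2 fold change -1.33 ± 0.09, adjusted p = 0.000106) and rose in Control against WT (0.73 ± 0.09, adjusted p = 0.00257) and in CypD KO against WT (0.57 ± 0.09, adjusted p = 0.00259), so 2 sodium-coupled bicarbonate carriers, *Slc4a8* and *Slc4a7*, moved in opposite directions. *Slc4a4*, another sodium-bicarbonate cotransporter, fell in CypD KO from 6.63 and 6.74 TPM to 3.34 and 2.81 TPM (-0.92 ± 0.10, adjusted p = 0.000433) and was lower than in Control as well (-0.96, adjusted p = 0.000413). In libraries labelled CypD OE it was higher than in Control (0.505, adjusted p = 0.0087) and than in WT (0.55, adjusted p = 0.00911). Its directions in CypD KO against WT and in CypD OE against Control were thus those of *Slc4a7*. *Slc4a2*, the anion exchanger with the highest mean of its list, was at 53.3 and 48.1 TPM in WT and 77.0 and 72.4 TPM in CypD KO (0.55 ± 0.12, adjusted p = 0.00714). Of 5 sodium-proton exchangers tested, which expel protons in trade for sodium, 4 rose in CypD KO against WT and 1 fell in libraries labelled CypD OE against Control, where 30.1% and 18.3% of all genes did so. *Slc9a8* led that list at 12.2 to 21.4 TPM and was the gene that fell (-0.42 ± 0.12, adjusted p = 0.0305), and it was higher in CypD KO and in Control than in WT (0.55, adjusted p = 0.00835, and 0.51, adjusted p = 0.0221). Each of these 3 calls was lost without some libraries: the fall without Control replicate 2 (0.148), CypD OE replicate 1 (0.13) or CypD OE replicate 2 (0.0782), the rise in CypD KO without its replicate 2 (0.051) and the rise in Control without WT replicate 1 (0.105) or Control replicate 2 (0.109). Over their 15 alternatives the adjusted p ranged from 0.00819 to 0.148, 0.00216 to 0.051 and 0.0078 to 0.109.

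**Figure D4:**
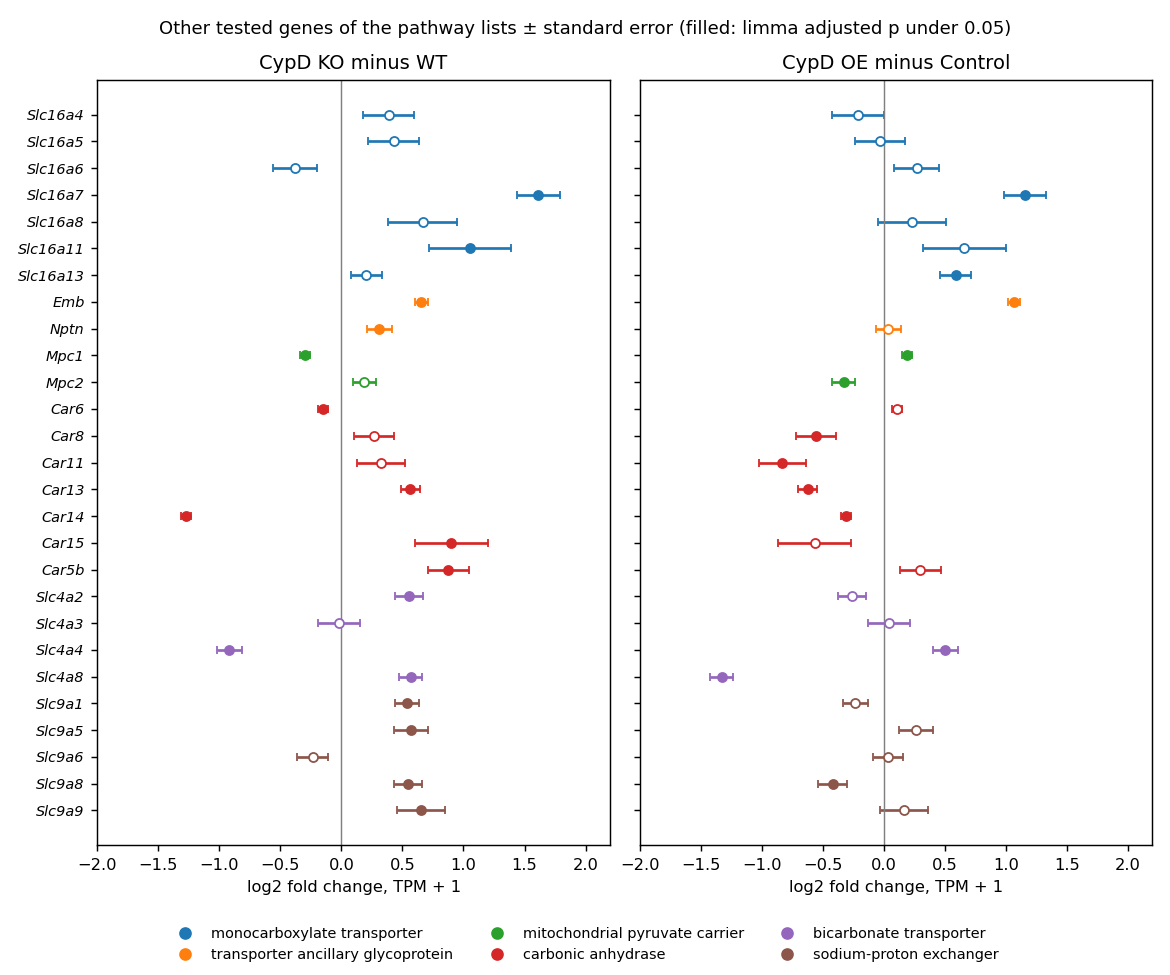
Log2 fold change of TPM + 1 with standard errors for the 27 other tested genes, by list, in CypD KO against WT and in libraries labelled CypD OE against Control; filled points passed an adjusted p of 0.05. *Slc16a7* and *Emb* were to the right of 0 in both panels, *Car14* stood farthest to the left at -1.27 in the first and *Slc4a8* at -1.33 in the second.

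Of 2409 tested genes whose group means spanned at least 1 on the log2 scale, those with a profile most like *Ldha* over the 8 libraries were *Aldoa* (Pearson's r = 0.9969), *Pgm1* (0.9969), *Eno1* (0.9957), *Grhpr* (0.9951) and *Ankzf1* (0.9941). *Aldoa*, *Pgm1* and *Eno1* encode enzymes of sugar breakdown. *Aldoa* was at a mean of 1255 TPM in WT, 2165 in CypD KO, 3312 in Control and 889 in libraries labelled CypD OE, close to *Ldha* in level as well. For *Slc16a3* the closest were *Eno1* (0.9929), *Prelid2* (0.9895), *Aldoa* (0.9878), *Grhpr* (0.9858) and *Trim63* (0.9846), all with a smaller span than *Slc16a3*. For *Slc4a7* they were the short RNA genes *Gm26316* and *Snora73b* (0.9653 and 0.9652), both listed at 0 in all 4 CypD KO and Control libraries, then *Prokr1* (0.9435), the quinone reductase gene *Nqo1* (0.9411) and *Dtwd2* (0.9281). TPM is scaled to transcript length, so values of such short genes can rest on few fragments, whose number was not examined. *Nqo1* was at a mean of 6.96 TPM in WT, 3.11 in CypD KO, 2.54 in Control and 7.69 in libraries labelled CypD OE. With 8 libraries in 4 groups, many genes reach a high r, so these values describe likeness only.

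**Figure D5:**
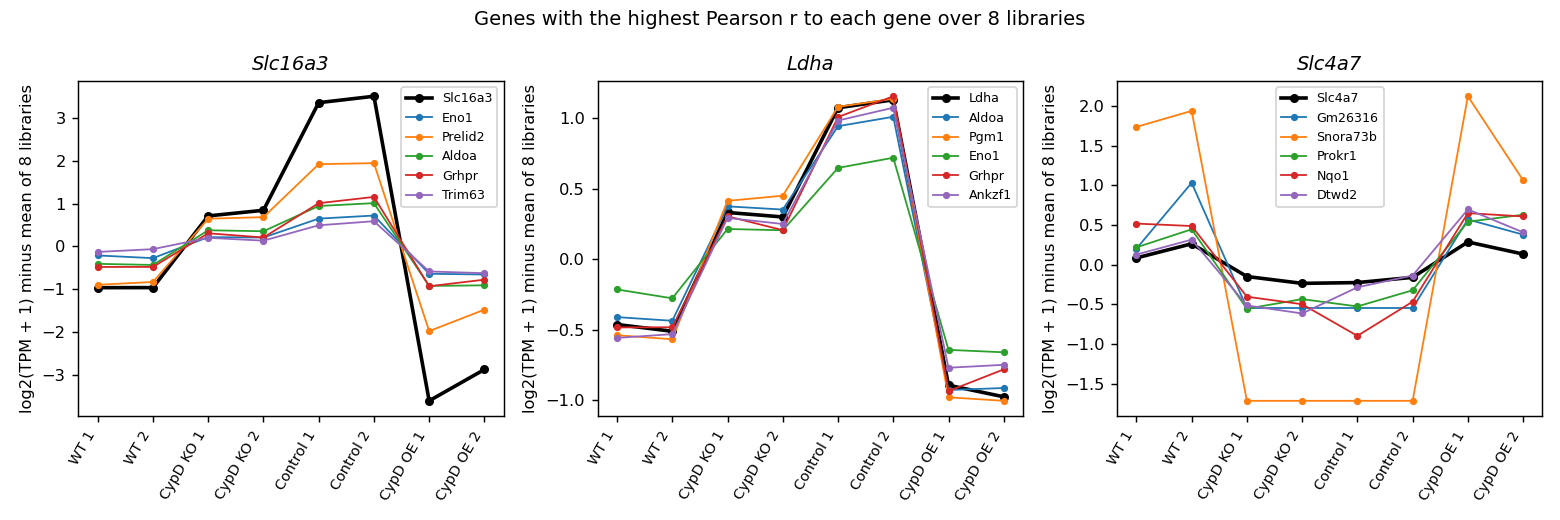
Log2(TPM + 1) minus its mean over the 8 libraries (vertical axis) in each library (horizontal axis) for *Slc16a3*, *Ldha* and *Slc4a7* (black) and the 5 genes most like each (colours). The black *Slc16a3* line spanned more than its companions, *Ldha* ran together with *Aldoa* and *Pgm1*, and *Slc4a7* spanned less than its companions.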

How the data were processed

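Total RNA of B16F10 cells was depleted of ribosomal RNA and sequenced in pairs of 150 bases. Per the labels and the study's methods, the authors used Cutadapt 3.4 for trimming, STAR 2.7.8a for alignment to GRCm39 and RSEM 1.3.1 for quantification; the RNA kit differs between labels and methods. The deposited values are TPM for 55414 genes, of which 54749 identifiers were in GENCODE M39. Read counts were not analysed here, so no count test was run. A few abundant transcripts can shift every TPM of a library, and RSEM splits reads shared by several genes, such as *Ldha* and its pseudogenes (at most 2.07 TPM).

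The 13526 genes that reached 1 TPM in 2 libraries or more were fitted on log2(TPM + 1) by limma 3.58.1 (R 4.3.3) with 4 group means and a trended eBayes step. Tests were two-sided, with Benjamini-Hochberg adjustment over all 13526 and a threshold of 0.05. Fold changes on this scale understate those of low genes. SE is limma's, and SD is over 2 libraries. Library 1 of a group is that without a numeric suffix. Separate cultures are not stated, so p-values measure only the spread between these libraries. From low values, 1 fragment at 1000 effective bases was worth 0.0820 to 0.0974 TPM, with 82.3% to 85.8% of low values within 0.15 of a whole fragment. Replicates correlated at r = 0.983 to 0.985. The 8 genes and all lists were chosen with earlier results of these data known. Genes named beyond the 8 are *Ppif*, the gene with the highest mean in each list, the 2 called list genes with the largest rise and the 2 with the largest fall in each comparison, and the 5 genes with the highest r. *Mpc2*, *Car8*, further values of *Car13*, *Car14* and *Slc4a4*, and *Emb* and *Slc4a8* in CypD KO against WT were added after their values were seen. Alternatives were a pseudocount of 0.1, no filter, a filter at 5 TPM, rescaling by median of ratios, only the 4 libraries compared, a replicate block, no trend, and leaving out each library in turn. The test was checked on simulated data. Python 3.11.15 with pandas 2.3.3 and numpy 2.4.6 was used.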

Additional observations from a re-analysis of the deposited data

How the results depend on the processing

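For the 8 genes, 547 fold changes under alternatives kept direction and call, 38 lost the call, 1 gained it and 9 reversed, all 9 for differences that were not called. *Ldha*, *Slc16a3*, *Bsg* and *Car9* kept direction and call under the alternatives run in CypD KO against WT, CypD OE against Control and Control against WT. For 38 values of named list genes and *Ppif*, 479 alternatives kept the call, 79 lost it and 3 gained it. The cause of these changes was not tested.

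When 1 library was left out, log2 fold changes that reversed ran from -0.021 to 0.054 for *Slc16a1* in CypD OE against Control, from -0.247 to 0.121 for *Car12* in Control against WT, from -0.053 to 0.125 for *Slc4a7* in CypD OE against WT, and in CypD KO against Control from -0.049 to 0.043 for *Slc16a1* and from -0.043 to 0.044 for *Slc4a7*, which also reversed to -0.068 after rescaling. Called genes of the 8 in CypD OE against Control numbered 4 to 7, and list genes called 11 to 18 in CypD KO against WT, 7 to 13 in CypD OE against Control and 1 to 4 in Control against WT. With a filter at 5 TPM, which leaves 16 list genes tested, 11 were called in CypD KO against WT and 8 in CypD KO against Control. In Control against WT there were 3 without the filter, 2 with only the 4 libraries and 3 without the trend. Ratios of TPM + 1 were 52.4 for *Ldha* to *Ldhb* in Control, 0.136 in WT and 0.0293 in CypD OE for *Slc16a3* to *Slc16a1*, and 1.67 in WT, 4.76 in CypD KO and 8.05 in Control for *Car9* to *Car12*.

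Same-numbered libraries deviated together with r of 0.108, -0.002, -0.019 and -0.009 in CypD KO against WT, CypD OE against Control, Control against WT and CypD OE against WT, so the numbers were not taken to pair them. With the replicate block, genes called of the 8 were 6, 6, 5 and 3, and list genes 16, 11, 6 and 8. Values under about 1 TPM rest on few fragments.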

Other observations

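Some genes of the lists stayed under the filter, so they have values and no test. *Hcar1*, the cell-surface receptor for lactate and the highest of the receptor list, had 1.17 and 0.88 TPM under Control but 0.08 to 0.34 TPM in the other 6 libraries, or approximately 12 and 9.8 against 1.0 to 4.1 fragments per 1000 effective bases. *Ldhal6b*, the highest of the other lactate dehydrogenase genes, reached 0.76 TPM in 1 Control library and was at most 0.19 TPM in the rest.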
